A study of Homo sapiens with 33 samples.

Results

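The 6 libraries described here compare the MITF variant G244E with wild-type MITF (WT). They are the 3 peak lists titled G244E and the 3 titled WT, out of 33 lists in 11 groups of 3. Each list holds the CUT&Tag peaks of HA-tagged MITF in the melanoma line UACC-257, an established human cell line. CUT&Tag uses an antibody, here against the HA tag, to direct a transposase to the chromatin where the tagged protein sits, and the cut fragments are sequenced.

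Both groups carry the genotype label MITF knockdown and both were treated with doxycycline. They differ, as far as the labels go, only in the MITF form named in the title. The labels give neither the promoter that drives the HA-tagged protein nor its level, nor how many clones each line holds. They do not say whether the 3 replicates were separate cultures, so p-values measure the spread between these libraries, which may be technical. K243A, another MITF variant, and Empty, whose title names no MITF form, are given beside the results. Each has 3 libraries under the same genotype and treatment labels, and K243A was nearer in depth to G244E than to WT.

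MITF specifies and maintains melanocytes. It is a basic helix-loop-helix leucine zipper protein that binds DNA as a dimer, together with itself or its relatives TFEB, TFE3 and TFEC. Its sites are the E-box, CACGTG, and the M-box, TCATGTG, and a T just before the core is a known preference of this family. Its known targets include genes for pigment synthesis, melanosome transport, lysosomes and melanocyte survival.

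Sites of both kinds lie in the promoters of some genes that were lower in G244E, and the examples below were chosen for carrying one. Of the 10 genes that fell most, 4 carried TCACGTG in the promoter. An M-box also lies before TYRP1, which was not lower, and CACGTG before IFT81 and MNT, which were higher. The sequences below are from RefSeq on GRCh38.p14, end before the start site, and run 5′ to 3′ on the strand of the gene. Capitals mark the E-box or M-box with its flanking T, in either orientation. The first 2 genes, TYR and GPNMB, encode melanosomal proteins and carry M-boxes. The next 3, RRAGC, ATP6V0D1 and MCOLN1, encode lysosomal proteins and carry E-boxes, and NAPA, LAMTOR1 and AFF4 are among the genes that fell most in G244E.
TYR chr11:89177745-89177801: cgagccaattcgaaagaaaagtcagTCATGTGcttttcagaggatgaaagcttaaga
GPNMB chr7:23246688-23246744: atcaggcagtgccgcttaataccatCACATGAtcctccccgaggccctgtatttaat
RRAGC chr1:38859853-38859909: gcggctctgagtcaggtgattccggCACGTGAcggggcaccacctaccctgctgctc
ATP6V0D1 chr16:67481186-67481242: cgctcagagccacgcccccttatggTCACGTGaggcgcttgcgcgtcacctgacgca
MCOLN1 chr19:7522557-7522613: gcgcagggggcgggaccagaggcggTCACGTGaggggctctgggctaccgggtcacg
NAPA chr19:47515247-47515303: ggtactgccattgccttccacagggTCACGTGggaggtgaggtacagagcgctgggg
LAMTOR1 chr11:72103432-72103488: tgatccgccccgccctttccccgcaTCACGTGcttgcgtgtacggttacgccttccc
AFF4 chr5:132963658-132963714: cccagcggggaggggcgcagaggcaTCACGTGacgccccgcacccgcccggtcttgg

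The WT lists held 193462 to 227330 peaks. G244E replicates 1 and 2 held exactly 300000 peaks and replicate 3 held 100041. The lists were ordered by p, so a limit of 300000 rows leaves out only weak peaks. The commonest local background under a peak, in tags, was 1.20, 1.08 and 1.18 in WT and 0.129, 0.108 and 0.151 in G244E, a mean depth 8.93 times higher in WT. It was 0.132, 0.159 and 0.244 in K243A and 0.03 in each Empty library. Depth therefore moves with the groups, and peak heights were not compared between them. Ranks within equal numbers of the strongest peaks by −log10 q were compared instead. Beside them stand "thinned" values, for which the pileups of the WT, G244E and K243A libraries were drawn down once to a background of 0.108 and ranked again. The Empty libraries lie below that background and were left as they are. Their ranks reach weak and tied peaks. At both rank 10000 and rank 20000, −log10 q was 1.87 in Empty replicate 1 and 1.75 in Empty replicate 2. Shares and scores of Empty thus rest partly on such peaks. Thinning matches the background only, since the peaks, summits and widths stay those called at full depth.

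G244E occupied fewer of the strongest wild-type regions than a WT library did. A WT region here is one shared by 2 WT libraries among their 10000 strongest peaks, which gave 7410 to 7639 regions per pair. Among the 10000 strongest peaks of the remaining WT library, 95.3%, 95.5% and 92.5% of these regions were found again. G244E replicates 1, 2 and 3 found 66.7%, 65.0% and 67.3%. Each G244E value is a mean over the 3 WT pairs. The groups did not overlap, and the means were 94.4% ± 1.65 in WT and 66.3% ± 1.19 in G244E (SD, n = 3 each). An exact two-sided permutation test gave p = 0.1, the smallest that 3 against 3 allows. The regions come from WT libraries, so this comparison leans towards WT by design, and the reverse one below towards G244E. Regions were not redefined in the permutations, so p does not account for that lean. K243A found 76.3% ± 0.297 and Empty 35.9% ± 4.15. After thinning, WT found 83.2% ± 1.34, G244E 67.8% ± 0.91 and K243A 76.0% ± 1.23. At this matched background the gap between WT and G244E was thus smaller but the groups still did not overlap (exact p = 0.1).

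The shortfall was wider the fewer peaks were taken. Among the 500 strongest peaks of each library, G244E found 45.6% ± 2.01 of the WT regions, WT 92.2% ± 1.69, K243A 65.2% ± 0.989 and Empty 18.7% ± 1.73. Among the 2000 strongest, G244E found 55.6% ± 0.686. Among the 20000 strongest it found 70.3% ± 1.59, against 94.6% ± 1.62 in WT. The regions shared by 2 G244E libraries, 6150 to 6321 per pair, were in turn found less often by WT. WT found 77.6%, 77.2% and 76.8% of them, and the remaining G244E library 87.7%, 85.0% and 86.4% (exact p = 0.1). That difference was 9.20 percentage points at own depth and 13.4 after thinning, but it turned to -14.3 points when all listed peaks were used in place of equal numbers.

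**Figure D1:**
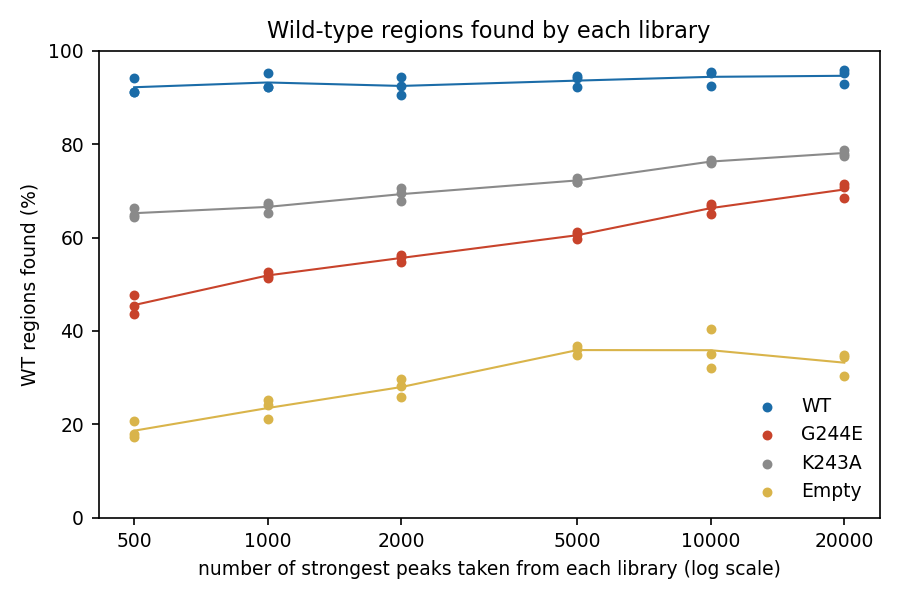
Share of wild-type regions (y axis, %) found among the strongest peaks of each library, by the number of peaks taken (x axis, log scale). Points are libraries and lines join group means. G244E lies below K243A and above Empty at every number, from 45.6% at 500 peaks to 70.3% at 20000.

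G244E held fewer of the strongest wild-type regions than K243A did. Regions present among the 20000 strongest peaks of all 3 WT libraries were ordered by their WT rank and taken in bins of 1000. Of the first bin, 91.7%, 92.0% and 93.2% lay among the 10000 strongest peaks of G244E replicates 1, 2 and 3. The share was 81.0% ± 0.569 in the second bin, 70.9% ± 1.99 in the third and 33.5% ± 0.404 in the tenth. Some fall along the bins is built in, since all regions were held against the same 10000 peaks, and no WT library was left aside to measure it. K243A held 99.5% ± 0.208, 94.2% ± 0.306 and 86.6% ± 0.458 of the first 3 bins and 30.7% ± 2.63 of the tenth. Among strong WT regions G244E thus held fewer than K243A in every replicate, and in the tenth bin it did not. The difference between G244E and K243A was not tested. Bins were taken at own depth only, where K243A replicates 2 and 3 had higher backgrounds than any G244E library.

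**Figure D2:**
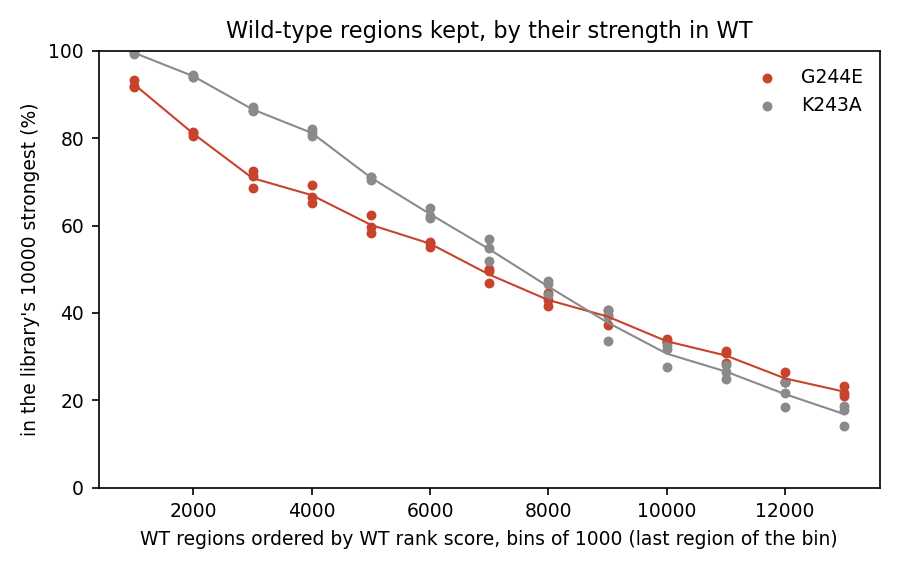
Share of wild-type regions (y axis, %) lying among the 10000 strongest peaks of a G244E or K243A library, by the order of the region in WT (x axis, bins of 1000 regions). Points are libraries and lines join group means. G244E lies below K243A in the first bin, at 92.3% against 99.5%, and not in the tenth, at 33.5% against 30.7%.

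The strongest G244E peaks sat closer to genes and were narrower. Of the 10000 strongest summits, 47.0%, 48.6% and 50.2% of the WT ones and 59.8%, 60.0% and 57.5% of the G244E ones lay within 5000 bp of an end of a protein-coding gene. The groups did not overlap, with 48.6% ± 1.61 in WT and 59.1% ± 1.38 in G244E (SD, n = 3; exact two-sided permutation test, p = 0.1). After thinning the shares were 47.2% ± 1.67 and 58.6% ± 1.76. Within 1000 bp of a gene start lay 34.7% ± 1.26 of WT summits and 43.8% ± 1.41 of G244E summits. K243A had 56.5% ± 0.704 within 5000 bp of an end and Empty 40.5% ± 3.92. Median peak width was 807, 868 and 923 bp in WT and 634, 611 and 648 bp in G244E (exact p = 0.1). It was 639, 658 and 781 bp in K243A and 291, 257 and 250 bp in Empty. The part of depth in these widths was not tested.

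**Figure D3:**
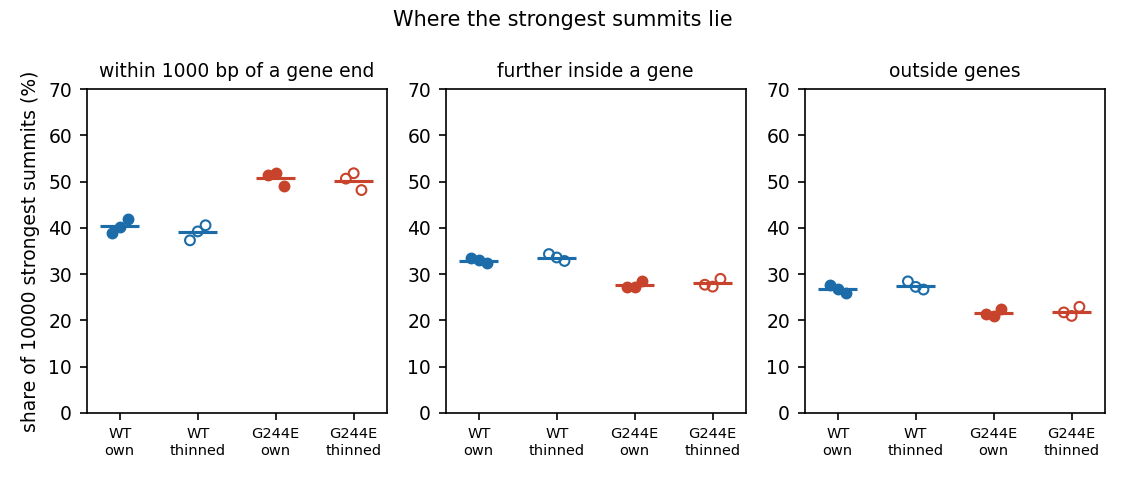
Share of the 10000 strongest summits (y axis, %) within 1000 bp of an end of a protein-coding gene, further inside a gene, or outside genes. Points are libraries at their own depth (filled) or thinned (open), and bars are means. All G244E libraries exceed all WT libraries near gene ends, with means of 50.7% and 40.3% at own depth.

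Individual regions were compared by a rank score, log2 of 20001 over the rank of the best peak in the region. The score is 0 for a region outside the 20000 strongest peaks. A difference, G244E minus WT, of 1 means a rank better by a factor of 2. Of 19885 regions tested with limma, 3825 were lower in G244E (19.2%) and 2191 higher (11%) at an adjusted p under 0.05. After thinning, 1024 of 21188 were lower (4.83%) and 719 higher (3.39%). Among the 14090 regions of the 10000 strongest peaks, 1431 were present in all WT and no G244E library (10.2%), 675 in all G244E and no WT library (4.79%), and 3900 in all 6.

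The lower regions were mostly distal and the higher ones mostly near gene ends. Of the lower regions, 17.8% lay within 1000 bp of a gene end and 43.6% further inside a gene. Of the higher regions, 59.9% lay near a gene end and 23.0% further inside a gene, beside 36.4% and 33.8% of the regions not called. The median score of the lower regions was 1.91 in WT, 0.19 in G244E, 0.89 in K243A and 0 in Empty. The median score of the higher regions was 0.78 in WT, 2.32 in G244E, 1.39 in K243A and 1.05 in Empty, against 0.16 in Empty for regions not called. Signal in the Empty libraries thus moved with the higher calls, and its part in them was not tested. Without the regions among the 10000 strongest peaks of an Empty library, 2859 of 10739 were lower and 686 higher.

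Among the regions that fell most, several lay inside genes, away from their ends. A region inside ALK, a receptor tyrosine kinase gene (2:29223790-29224923), ranked 76, 117 and 86 in WT and 11576, 12023 and 8009 in G244E, a difference of -6.83 ± 0.25 (SE; limma adjusted p = 0.000185). In K243A the ALK region still ranked 289, 272 and 252, ahead of every G244E library. A region inside MORC3 (21:36354907-36355710) ranked 107, 102 and 94 in WT and 8725 in G244E replicate 3, and lay outside the 20000 strongest peaks in the other G244E libraries (-7.23 ± 0.35). Ranked by fold, the ALK region had -0.74 (limma adjusted p = 0.0568) and lost its call. The others were a region inside HTR2A (13:46866073-46866702; -6.79 ± 0.48), an intergenic one near DDX10 (11:108647444-108648582; -7.23 ± 0.57) and the NAPA promoter described next. The DDX10 region also lost its call by fold (-1.48, limma adjusted p = 0.12).

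The 6 regions that rose most had WT ranks of 1171 or weaker. A region inside SF3A1, a splicing factor gene (22:30340848-30341789), ranked 2128, 1367 and 2200 in WT and 10, 108 and 10 in G244E (difference 6.39 ± 0.94, limma adjusted p = 0.00426). An intergenic region near CADM1 (11:115560992-115561796) ranked 12137, 11363 and 9690 in WT and 443, 326 and 297 in G244E. A region near CCDC200 (17:43251461-43252030) moved from 4432, 4690 and 5505 to 127, 155 and 109. That region was also among the strongest in the Empty libraries, with a mean score of 13.95. A region near ATOH8 (2:85741412-85743245; 5.05 ± 0.37) and the promoters of RANBP9 and IFT81 complete the 6.

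For genes, the score was that of the best peak with its summit within 5000 bp of either end of the gene. Of 9491 protein-coding genes tested with limma, 959 were lower in G244E (10.1%) and 1783 higher (18.8%), and the groups did not overlap in 957 and 1780 of these. The median difference of all genes was 0.33. After thinning, 270 of 9929 genes were lower (2.72%) and 544 higher (5.48%). Of the 954 lower genes still tested, 943 kept their direction and 259 their call. Of the 1783 higher genes, 1772 kept their direction and 515 their call. The median Empty score was 1.80 for the higher genes, 0.67 for the lower and 0.88 for those not called.

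NAPA fell most. It encodes an attachment protein of the SNARE machinery for vesicle fusion. Its peak (19:47514769-47515683), with the summit 234 bp before the start and 22 bp from the printed E-box, ranked 3 in each WT library and 276, 233 and 343 in G244E (difference -6.55 ± 0.23, limma adjusted p = 0.000101). In K243A it ranked 11, 12 and 12. The NAPA difference turned to 2.33 when peaks were ranked by fold, a call of higher (limma adjusted p = 0.00366). It was -6.80 after thinning. BCL2L1, which encodes an inhibitor of apoptosis, ranked 190, 115 and 192 in WT and 7148, 5668 and 5006 in G244E (-5.19 ± 0.29), from a peak inside the gene 2380 bp from an end. That summit was 57131 bp from the start of BCL2L1. Within 1000 bp of an end BCL2L1 had -0.57 (limma adjusted p = 0.121) and lost its call. Ranked by fold, BCL2L1 stood at 0.70.

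LAMTOR1 encodes the membrane anchor of the Ragulator complex, which holds the Rag GTPases on the lysosome. It ranked 284 and 296 in WT replicates 1 and 3, slightly ahead of these in replicate 2, and 6864, 7570 and 4626 in G244E (-4.47 ± 0.25, limma adjusted p = 0.000309), with the summit 90 bp before its start. One peak shared by TRAPPC6A, a vesicle-tethering subunit, and BLOC1S3, a subunit of a complex that builds lysosome-related organelles, ranked 21, 20 and 22 in WT and 245, 755 and 402 in G244E (-4.32 ± 0.40). Ranked by fold, that shared peak stood at 2.42 and was called higher (limma adjusted p = 0.0107). AFF4, a scaffold of the super elongation complex, moved from 492 and 222 in WT replicates 1 and 2, with replicate 3 between them, to 6236, 5097 and 9478 (-4.46 ± 0.38). SCLY, selenocysteine lyase, moved from 118, 112 and 152 to 1507, 4526 and 4917 (-4.68 ± 0.46), and SKAP2 changed by -4.36 ± 0.42. Ranked by fold, AFF4 (-1.53), SCLY (-0.42) and SKAP2 (-2.13) lost their calls and LAMTOR1 had -1.03. MINAR1 and KCNQ5, a potassium channel gene, lay outside the 20000 strongest peaks in all 3 G244E libraries, after WT ranks of 566, 870 and 487 and of 1214, 971 and 903. Their strongest WT summits lay 4971 and 4161 bp outside the gene. Within 1000 bp of an end KCNQ5 had -0.25 (limma adjusted p = 0.384) and lost its call.

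RANBP9 rose most among genes. RANBP9, which encodes a subunit of a ubiquitin ligase complex, ranked 5710, 5031 and 3323 in WT and 84, 77 and 234 in G244E (5.31 ± 0.46, limma adjusted p = 0.000738). IFT81, an intraflagellar transport gene, moved from 1569, 1333 and 1171 to 19, 61 and 79 (4.90 ± 0.52). CNOT3, of the CCR4-NOT deadenylase complex, moved from 1808, 1233 and 1319 to 65, 53 and 55 (4.64 ± 0.24). CNOT3 ranked 67, 849 and 27 in Empty, so its G244E and Empty ranks overlapped. KPNB1, importin beta, moved from 1511, 1285 and 1865 to 88, 98 and 38 (4.48 ± 0.39) and ranked 121, 14 and 360 in Empty. One peak served CNOT9 and USP37 (4.49 ± 0.53), another IFT25 and LRRC42 (4.45 ± 0.52), and CHRAC1 and TMEM18 rose by 4.36 ± 0.27 and 4.36 ± 0.30. The IFT25 and LRRC42 peak ranked 112, 37 and 160 in G244E and 1457, 32 and 54 in Empty, so these overlapped. TMEM18 ranked 359, 233 and 89 in Empty and CHRAC1 871, 204 and 2198, behind their G244E ranks. The Empty ranks of RANBP9, IFT81, CNOT9 and USP37 also lay behind those in G244E. In K243A, RANBP9 ranked 612, 1776 and 2388, between its WT and G244E ranks.

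Of the 16 pigmentation genes, 14 were tested: 7 were lower in G244E and 0 higher, beside 10.1% and 18.8% of all genes. Their median difference was -1.10, beside 0.33 for all genes. GPNMB, a melanosomal glycoprotein, ranked 770, 783 and 1096 in WT and 11300, 9723 and 9052 in G244E (-3.52 ± 0.24, limma adjusted p = 0.00041), with the summit 38 bp from the printed M-box. TRPM1, a melanocyte cation channel, ranked 2192, 2059 and 1815 in WT and lay outside the 20000 strongest peaks in all 3 G244E libraries (-3.31 ± 0.20). TRPM1 was thus tested through WT alone. TYR, which encodes tyrosinase and carries out the first step of melanin synthesis, ranked 4418, 4178 and 6912 in WT; in G244E it ranked 18680 in replicate 1 and 13754 in replicate 3 and was outside the 20000 strongest in replicate 2 (-1.78 ± 0.29, limma adjusted p = 0.00494). In these 3 genes the WT and G244E ranks did not overlap, as in 957 of all 959 genes called lower.

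PMEL, the fibril protein of melanosomes, moved from 1252, 1276 and 1525 to 17736, 7829 and 7632 (-2.92 ± 0.36), while its K243A ranks were 939, 458 and 558. Its window overlaps that of the neighbouring CDK2. The PMEL summit in WT replicate 1 lay 4191 bp outside PMEL and inside CDK2, which had the same K243A ranks. MLPH, melanophilin, which links melanosomes to myosin, moved from 1247, 1678 and 2005 to 9000, 10736 and 10053 (-2.62 ± 0.25). SLC24A5, a melanosomal ion exchanger, changed by -1.87 ± 0.23 and MLANA by -0.83 ± 0.20. The strongest WT summits of MLPH and MLANA lay 3726 and 4507 bp outside the gene. MLANA lay outside the 20000 strongest peaks in all 3 G244E libraries. Within 1000 bp of a gene end, 3 of the 7 lower pigmentation genes were tested, and these 3 stayed called. The other 7 tested genes did not pass. SLC45A2 had -1.37 ± 0.48 and OCA2 -0.50 ± 0.54, while MYO5A had 1.21 ± 0.39 and MC1R 0.89 ± 0.35. RAB38, RAB27A and TYRP1 had -0.48 ± 0.28, 0.37 ± 0.32 and 0.11 ± 0.20. Of the melanocyte markers, TYR, PMEL, MLANA, MC1R and SOX10 had a peak among the 20000 strongest in all 3 WT libraries. TYRP1 lay outside them in all 3, and DCT and GPR143 had too few peaks to be tested. Such peaks were common, since 9491 of 19970 protein-coding genes had one in at least 2 of the 6 libraries. SOX10 had one in all 3 Empty libraries too, and TYR in none. These peaks therefore do not check the cell label. All 7 lower genes kept their direction after thinning and 4 their call (TYR, TRPM1, MLPH and GPNMB). By fold at own depth TYR, PMEL and MLPH turned positive, and of 6 tested 3 kept their direction and 2 their call. With presence in all 6 libraries, 3 of the 7 were tested, and these 3 stayed called.

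All 24 lysosome and autophagy genes were tested: 13 were lower and 0 higher, beside 10.1% and 18.8% of all genes. Their median difference was -1.38, and 8 of the 13 stayed called without WT replicate 1, 2 or 3. RRAGC encodes a Rag GTPase that recruits mTORC1 to the lysosome. It ranked 35, 26 and 50 in WT and, in G244E, 300 in replicate 1, 345 in replicate 3 and slightly ahead of these in replicate 2 (-3.08 ± 0.29, limma adjusted p = 0.000944), with its summit 22 bp from the printed E-box. In K243A, RRAGC ranked 326, 295 and 372. ACP5, an acid phosphatase, moved from 746, 850 and 611 to 7936, 16668 and 7213 (-3.76 ± 0.36), and in K243A ranked 1026, 656 and 1020. ATP6V0D1, a subunit of the proton pump that acidifies lysosomes, moved from 393, 588 and 462 to 3119, 6346 and 8642 (-3.55 ± 0.40).

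The pump subunits ATP6V1C1 and ATP6V1H changed by -2.15 ± 0.53 and -2.11 ± 0.20. The membrane proteins LAMP1 and LAMP2 changed by -2.17 ± 0.40 and -2.21 ± 0.29. Among hydrolases, CTSD, the protease cathepsin D, changed by -2.23 ± 0.25, HEXA by -2.13 ± 0.22 and NEU1, a sialidase, by -1.15 ± 0.29. CTSD ranked 1611, 2105 and 1899 in K243A, ahead of its WT ranks of 2729, 2395 and 2593. MCOLN1, a lysosomal cation channel, changed by -1.34 ± 0.29, UVRAG by -1.40 ± 0.35 and FNIP2 by -1.24 ± 0.30. All 13 kept their direction after thinning and 5 their call (RRAGC, ATP6V0D1, ATP6V1H, LAMP2 and CTSD). By fold at own depth RRAGC, NEU1, UVRAG and MCOLN1 turned positive, and RRAGC, NEU1 and UVRAG were then called higher. Of 12 tested by fold, 8 kept their direction and 0 their call. With presence in all 6 libraries, 9 of the 13 were tested, and these 9 stayed called.

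**Figure D4:**
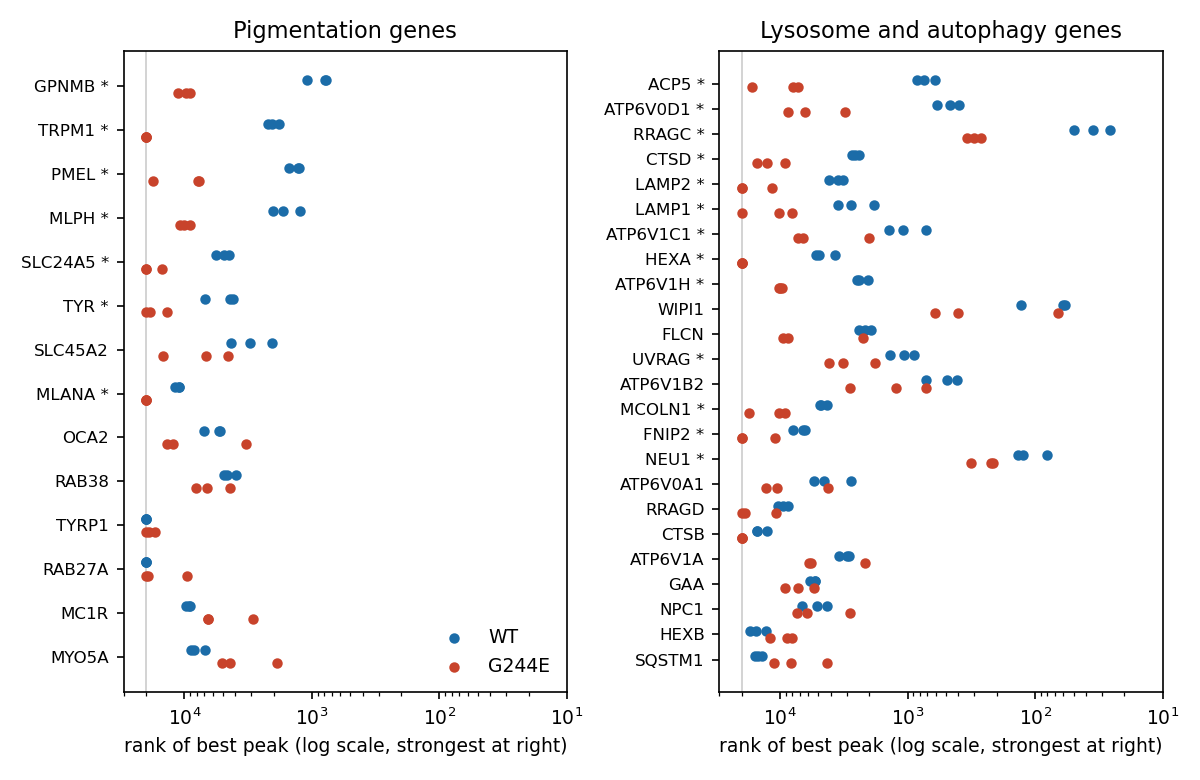
Rank of the best peak (x axis, log scale, strongest at the right) of each tested pigmentation and lysosome or autophagy gene in the WT and G244E libraries. Points are libraries, asterisks mark genes lower in G244E, and the grey line stands for peaks outside the 20000 strongest. All 7 and 13 marked genes have every WT library to the right of every G244E library, as do 957 of all 959 genes called lower.

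The remaining lists were mixed, and their counts stand beside 10.1% of all genes lower and 18.8% higher. Among 14 cell cycle, survival and metabolism genes tested, 3 were lower and 3 higher. BIRC7, an inhibitor of apoptosis, moved from 1935, 1291 and 1080 to 11217, 13541 and 15113 (-3.24 ± 0.28), and CDK2 by -2.22 ± 0.25. APEX1 was called lower from a peak 3766 bp outside the gene (-3.17 ± 0.31). By fold at own depth, CDK2 (1.37) and APEX1 (3.19) were instead called higher. CCND1, cyclin D1, was higher by 1.52 ± 0.33, CDKN1A by 1.95 ± 0.44 and MCL1 by 1.84 ± 0.39. After thinning the 3 lower genes kept their call and 0 of the 3 higher ones did, and the latter also lost it without WT replicate 1, 2 or 3. Among 8 lineage regulators tested, IRF4, a pigmentation transcription factor, was lower (-2.92 ± 0.43), and SOX10 (1.17 ± 0.35) and ERBB3 (1.98 ± 0.31) were higher. SOX10 had 0.44 after thinning (limma adjusted p = 0.572) and lost its call there, without any 1 WT replicate and without G244E replicate 1 or 3.

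Among 10 tested genes for MITF relatives and other E-box factors, MAX (-2.01 ± 0.23) and BHLHE40 (-2.22 ± 0.29) were lower, and both turned positive when ranked by fold. BHLHE40 was then called higher (limma adjusted p = 0.0462). MNT (3.23 ± 0.39), MYC (1.35 ± 0.39), TFEB (1.11 ± 0.23) and TFE3 (0.91 ± 0.28) were higher. After thinning 0 of these 6 were called, with TFEB at 0.59 and TFE3 at 0.53, and 1 of the 4 higher genes stayed called without WT replicate 1, 2 or 3. TFEB lay outside the 20000 strongest peaks in all 3 WT libraries and ranked 9618, 7564 and 10997 in G244E. TFE3 lay outside them in all 3 WT libraries too. Of 10 genes of the invasive melanoma state tested, 4 were higher and 0 lower: AXL (1.05 ± 0.22), FN1 (1.76 ± 0.24), FOSL1 (1.87 ± 0.35) and TEAD4 (1.72 ± 0.32). FN1, fibronectin, moved from 6602, 7701 and 5943 to 1828, 1711 and 2490, and ranked behind these in every Empty library. FOSL1 ranked 2488, 2079 and 4954 in G244E and 1474, 2818 and 397 in Empty, so these overlapped. After thinning FN1 and FOSL1 kept their call. These counts stand beside 10.1% of all genes lower and 18.8% higher.

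Of 12 DNA repair and replication genes tested, EME1 was lower (-1.63 ± 0.23) and BRCA1 (1.04 ± 0.20) and MCM3 (1.26 ± 0.37) were higher, and 0 of the 3 were called after thinning. Of 15 housekeeping genes tested, 3 were higher, ACTB (2.70 ± 0.39), TUBA1B (2.65 ± 0.30) and RPL13A (2.36 ± 0.39, from a peak 3952 bp outside the gene), and 2 lower, B2M (-2.46 ± 0.55) and GUSB (-1.02 ± 0.27). ACTB and TUBA1B kept their call after thinning, and B2M and GUSB lost theirs there and without WT replicate 1, 2 or 3. RPL13A ranked 29, 227 and 146 in Empty, ahead of its G244E ranks of 534, 1026 and 360. For ACTB and TUBA1B the Empty and G244E ranks overlapped. Markers of other cell types rarely had a strong peak in either group. Of 12 markers each, 2 hepatocyte, 3 lymphoid, 2 keratinocyte and 2 fibroblast or endothelial ones were tested. LCK (-1.91 ± 0.32) and COL1A1 (-1.70 ± 0.34) were lower, lost their call after thinning and turned positive when ranked by fold. COL1A1 was then called higher (limma adjusted p = 0.00368). The counts of these lists stand beside 10.1% of all genes lower and 18.8% higher.

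Promoters of the genes that fell carried the flanked E-box more often. The promoter window ran from 250 bp before to 50 bp after the start, and both strands were searched. TCACGTG was present in 19.6% of 765 promoters of lower genes, 6.60% of 5574 promoters of genes not called, 1.89% of 1481 promoters of higher genes and 4.79% of all 15812 promoters. CACGTG with no T before it on either strand was present in 3.40%, 5.06%, 3.65% and 4.09%. The M-box TCATGTG, which lies within counts of CATGTG, was present in 6.27%, 1.40%, 0.945% and 2.26%, and CATGTG in 12.2%, 6.44%, 4.05% and 8.43%. The GC content of the promoters was 63.7%, 64.7%, 67.2% and 61.4% in the same order, and its part was not tested. After thinning, TCACGTG was present in 21.1% of 218 lower and 1.78% of 449 higher promoters.

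**Figure D5:**
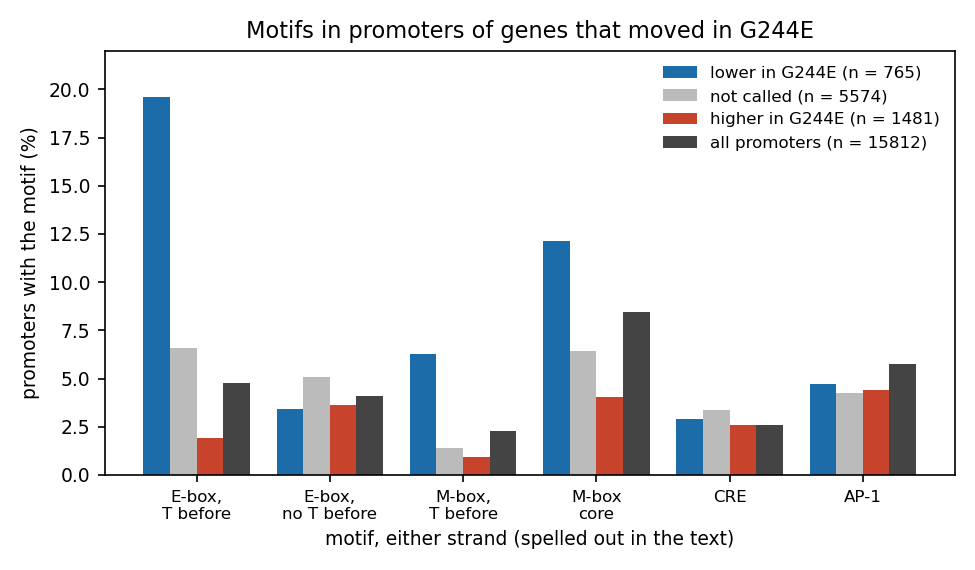
Share of promoters with each motif (y axis, %) among genes lower, not called or higher in G244E and among all promoters. The E-box with a T before it and the M-box with a T before it stand highest among lower genes, at 19.6% and 6.27%, and the E-box with no T before it does not.

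Read from the motif side, 546 tested genes had TCACGTG in the promoter, of which 150 were lower and 28 higher, with a median difference of -0.46. Of 362 with CACGTG and no T before it, 26 were lower and 54 higher (median 0.23). Of 140 with TCATGTG, 48 were lower and 14 higher (median -0.41). Of 6467 with neither CACGTG nor CATGTG, 521 were lower and 1341 higher (median 0.40). Of all 7820 tested genes with a promoter sequence, 9.78% were lower and 18.9% higher (median 0.34). Genes were not matched for WT score in these counts.

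The same lean was visible within each library. Among promoters holding a summit of the 10000 strongest peaks, 15.0%, 15.3% and 15.2% carried TCACGTG in WT and 8.73%, 9.35% and 9.32% in G244E. The shares were 11.0%, 11.1% and 11.5% in K243A and 7.76%, 7.06% and 6.80% in Empty. G244E thus lay below WT and K243A and above Empty in every library. After thinning, WT had 14.7%, 14.5% and 14.9% and G244E 8.67%, 9.35% and 9.59%. Among the 1000 strongest, WT had 24.7%, 25.9% and 24.2% and G244E 10.8%, 14.8% and 13.0%.

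Summits also lay further from the motif in G244E. In 636 promoters whose only CACGTG was part of TCACGTG, 307, 309 and 312 had a summit within 500 bp in WT and 238, 251 and 229 in G244E. The median distance from summit to motif was 43, 43 and 42 bp in WT, 62, 70 and 62 bp in G244E and 60, 60 and 51 bp in K243A. The median distance from summit to gene start was 85, 83 and 78.5 bp in WT and 84, 92 and 87 bp in G244E. Summit positions were not thinned, and the part of depth in these distances was not tested.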

How the data were processed

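HA-MITF CUT&Tag in UACC-257 cells was deposited as 1 narrowPeak list per library, not pooled, with hg38 coordinates, per the labels. MACS2, Bowtie2 2.3.4.3 and bcl2fastq 2.20.0.422 are listed, with no order or role, in the submitters' processing notes. The version of MACS2, any control library and duplicate removal are not given in the sources used here. The lists have no header and were read in narrowPeak order: the authors' deposited fold enrichment (a ratio), −log10 p-value and −log10 q-value, and summit offset (bp). Scores per peak are the authors'. They served to rank peaks within a list and to solve the pileups and backgrounds described below. An alternative run also used a cutoff of −log10 q at least 5. Members and gene lists were chosen with earlier results of these data known.

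Lists were cut to chromosomes 1 to 22 and X and ranked by −log10 q. Tag pileups and backgrounds were solved from fold and p, which gave 100% of peaks within 0.001, and thinned by 1 binomial draw (seed 1). Regions were merged intervals of the 20000 strongest peaks of the 6 libraries, with an overlap of at least 1 bp, and regions and genes needed a peak in at least 2 of 6 libraries. Rank scores were fitted with limma 3.58.1 (R 4.3.3) and Benjamini-Hochberg adjustment over all features tested (threshold 0.05), and single values with exact permutation tests over libraries (scipy 1.17.1). Scripts were tested on simulated data. Genes are the 19970 protein-coding genes of RefSeq GRCh38.p14, of which 15812 have a promoter sequence. Named were the 10 genes and 6 regions with the largest fall, and as many with the largest rise, past the threshold whose groups did not overlap, every pigmentation gene, and members of the other lists that passed. One region that this rule names is not reported here. K243A and Empty are description only. Across the series 2 pairs of lists outside these groups were identical.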

Additional observations from a re-analysis of the deposited data

How the results depend on the processing

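Several choices moved the counts. Thinned to a matched background, 1024 regions were lower and 719 higher, and 270 genes lower and 544 higher. Thinned and ranked by fold, an alternative chosen after seeing the data, 332 regions were lower and 195 higher, and 29 genes lower and 45 higher. Ranked by fold at own depth, 629 genes were lower and 2701 higher, so that 81.1% of called genes were higher against 65.0% by −log10 q, and the median of all genes moved from 0.33 to 0.57.

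Ranked by fold, these differences turned positive: NAPA (gene and region) 2.33, BCL2L1 0.70, TRAPPC6A and BLOC1S3 2.42, TYR 0.23, PMEL 0.18, SLC45A2 1.29, OCA2 0.72, MLPH 0.71, RAB38 1.55, RRAGC 2.88, NEU1 3.15, UVRAG 2.0, MCOLN1 0.51, CDK2 1.37, APEX1 3.19, MAX 0.72, BHLHE40 1.14, LCK 0.60 and COL1A1 1.86. Of these, NAPA, TRAPPC6A, BLOC1S3, RAB38, RRAGC, NEU1, UVRAG, CDK2, APEX1, BHLHE40 and COL1A1 were called higher. BCL2L1, TYR, PMEL, SLC45A2, OCA2, MLPH, MCOLN1, MAX and LCK were not called. Thinned and ranked by fold, all 7 lower pigmentation and all 13 lower lysosome genes stayed negative, with 1 and 0 of them called, while SLC45A2 (0.13), OCA2 (0.075), BHLHE40 (0.39), COL1A1 (0.21), MC1R (-0.17) and TYRP1 (-0.13) changed sign. TYRP1 stood at -0.15 when thinned, BRCA1 at -0.25 over the gene body and RPL13A at -1.79 within 1000 bp. The cause was not tested.

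With the 10000 strongest peaks 2316 regions were lower and 1452 higher. With presence in all 6 libraries 1325 regions were lower and 1576 higher, so the excess of lower regions was not seen there. Of 5869 genes tested in that way, 654 were lower and 1543 higher. Without strong Empty regions 686 were higher. Over gene bodies 1479 genes were lower. Leaving out 1 library gave 1077 to 2712 higher regions, 534 to 1036 lower genes and 756 to 2074 higher genes. The low ends came without a WT replicate (1163, 1077 and 1147 higher regions, 577, 534 and 581 lower genes and 827, 756 and 831 higher genes without WT replicate 1, 2 and 3). Regions in all WT and no G244E library numbered 944 with 5000 peaks, 2196 with 20000, 2291 by fold, 802 thinned and 781 thinned by fold. Those in all G244E and no WT library numbered 1526 by fold. G244E regions found by the other G244E libraries minus by WT turned to -14.5 points with all peaks of −log10 q at least 5 and -14.3 with all listed peaks. The other shares and widths kept their direction in every alternative run.

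Same-numbered libraries did not deviate together (correlations of -0.0147 to 0.00648 over regions and 0.00177 to 0.0143 over genes), so replicate numbers were not taken as pairs. With the replicate number as a block, 3193 regions were lower and 1923 higher, and 888 genes lower and 1687 higher.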

Other observations

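Motifs of other factors were also counted in the promoters of called genes. The CRE, TGACGTCA, was present in 2.88% of promoters of genes lower in G244E, 3.35% of those not called, 2.57% of those higher and 2.59% of all promoters. The AP-1 motif, TGANTCA, was present in 4.71%, 4.23%, 4.39% and 5.76%, and CCAAT in 38.4%, 38.7%, 38.2% and 36.3%. The GC box, GGGCGG, was present in 67.8% of lower, 71.3% of not called, 78.2% of higher and 58.5% of all promoters. It therefore ran opposite to the flanked E-box, and no test was made of either.

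In 616 promoters whose only CACGTG had no T before it, 159, 160 and 157 held a summit of WT within 500 bp and 167, 174 and 174 one of G244E. The median distance from summit to motif was 63, 58 and 67 bp in WT and 72, 76.5 and 81 bp in G244E.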
